A study of Homo sapiens with 4 samples.

Results

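The genes described here are NEAT1, the RNA around which paraspeckles form, its neighbour MALAT1 with the antisense transcript TALAM1, and genes for proteins that sit in paraspeckles or share their RNA-binding families. They were chosen by symbol, 3 nuclear RNAs and 6 protein genes, and 8 of the 9 were measured among the 25283 genes of the count table. SFPQ, NONO, PSPC1, RBM14 and TARDBP are the protein genes with values, and MATR3 was not analysed here. All 8 passed the filter on low counts, as did 17317 genes in all. The genes were picked with the lower level of NEAT1 in one group already known, so the differences between groups in the members are given as descriptions and not as tests.

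Paraspeckles are bodies of the cell nucleus that assemble on the long form of NEAT1. A short form of the same RNA ends at an early polyadenylation site, and the choice between the forms is made by 3′ end processing factors. SFPQ and NONO bind the long form and are needed for the bodies, PSPC1 joins them in the same protein family, and RBM14 helps the finished particle to hold together. MALAT1 lies beside NEAT1 on the chromosome and accumulates in nuclear speckles, the stores of splicing factors.

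RNA was sequenced from cells labelled as neurons. They were made by way of neural progenitors from the established line H1, which are human embryonic stem cells, and were grown on in maturation medium. WT cells (genotype label wild type, empty vector control; 2 libraries) and U1_OE cells (genotype label snRNA U1 overexpression; 2 libraries) differ in the lentiviral vector, which was given for 36 hours. The treatment text of every sample, WT included, names the overexpression vector, so the groups rest on the genotype labels and titles. U1 snRNA pairs with 5′ splice sites and holds back early cleavage and polyadenylation; its own level was not analysed here. Separate cultures are not named for the libraries of either group, so every error and p-value measures the spread between libraries, which may be technical.

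Totals ran from 16713505 to 19057423 estimated counts per library. Defining neuronal markers were near 0: DCX, of young neurons, had at most 0.169 CPM (counts after scaling each library by its TMM-adjusted total), with 0 in WT 1 and in U1_OE 1, and STMN2 at most 0.318, with 0 in WT 2. COL1A1, the main collagen chain of mesenchymal cells, had 29374 to 41457 CPM. The summed level of 11 measured neuronal markers was 186 and 121 CPM in WT and 331 and 369 CPM in U1_OE libraries, mostly TUBB3, a beta-tubulin at 159 and 104 CPM in WT and 264 and 338 CPM in U1_OE libraries. DESeq2 called TUBB3 and GAP43, a growth cone protein (3.29 and 1.29 against 47.0 and 11.5 CPM), higher. Of the 7 neuronal markers tested, 4 had a positive and 3 a negative log2 fold change. The negative ones were SYT1 (-0.36 ± 0.41, SE), the synaptic vesicle gene SYP (-1.17 ± 0.80, groups apart) and the neurofilament gene NEFL (-1.19 ± 0.92). Levels were low for SYP (1.20 and 0.669 against 0.582 and 0.243 CPM) and NEFL (1.60 and 0.739 against 0.784 and 0.221 CPM). RBFOX3, too low to test, was at 0.269 and 0.180 against 0.148 and 0.0419 CPM. The sum over 13 mesenchymal markers was 79824 and 91148 CPM in WT and 97200 and 88700 CPM in U1_OE libraries, and DESeq2 called COL6A1 (2226 and 2392 against 3430.0 and 3140 CPM) and POSTN (72.4 and 142 against 273 and 230 CPM) higher. The sum over 5 measured progenitor markers was 49.8 and 47.9 against 56.5 and 67.1 CPM, led by NES (24.3 and 30.0 against 39.3 and 44.5 CPM), with HES1 at 2.29 and 2.88 against 7.21 and 9.29 CPM. Lower in both U1_OE libraries were PAX6 (19.7 and 13.5 against 5.58 and 12.3 CPM) and SOX2 (1.14 and 1.23 against 0.0965 and 0.820 CPM), which define neural progenitors. The sum over 5 astrocyte markers was 8.58 and 19.7 against 27.3 and 22.6 CPM, mostly SLC1A3. The defining marker GFAP was low in all libraries, at 0.596 and 0.815 against 0.931 and 1.73 CPM, higher in U1_OE libraries without overlap. edgeR called 0 of these markers. The part of cell type in the results was not tested, and in bulk RNA fewer cells of a type and less RNA per cell cannot be told apart.

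3 stretches of sequence show what a count for these genes can and cannot see. They were read from GENCODE v29 transcripts on GRCh38, plus strand, 5′ to 3′. The first lies at chr11:65426433-65426532, across the annotated end of the short transcript NEAT1-201. That transcript is annotated with 2 exons, and its last base is 65426457. Capitals in this stretch mark AATAAA, a polyadenylation signal motif that starts 46 bases beyond that base. Which 3′ end the motif serves was not tested. The others are the last 100 bases of the long NEAT1 (chr11:65445441-65445540) and of the stable MALAT1 RNA (chr11:65506017-65506116), each just before an annotated tRNA-like RNA of 58 and 57 bases. Their capitals mark runs of at least 10 bases that both ends share.
NEAT1 across the short end: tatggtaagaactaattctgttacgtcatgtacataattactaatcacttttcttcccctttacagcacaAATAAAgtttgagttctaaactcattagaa
NEAT1 long 3′ end: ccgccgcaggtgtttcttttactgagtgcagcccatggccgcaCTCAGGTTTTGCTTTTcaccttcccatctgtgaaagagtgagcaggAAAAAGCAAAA
MALAT1 3′ end: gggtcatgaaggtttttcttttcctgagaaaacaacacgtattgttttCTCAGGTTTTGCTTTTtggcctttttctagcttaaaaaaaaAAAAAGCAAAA

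The shared runs are 16 and 11 bases long. One is a U-rich stretch and the other the A-rich tail. Both are parts of the triple helix known to shield the long NEAT1 and MALAT1 in place of a poly(A) tail. AATAAA stood in the last 100 bases of 35.3% of 14376 annotated lincRNA transcripts. On the transcript strand the long NEAT1-202, a single exon of 22743 bases, held AATAAA 8 times (24 times on the other strand), and MALAT1-202, of 8708 bases, 9 times (10 on the other). That is 0.352 and 1.03 per kb, against a median of 0.800 over 644 single-exon lincRNA transcripts of at least 1 kb, of which 82.1% held the motif. GGTAAG, the core of the 5′ splice site that U1 snRNA pairs with, occurred 7 times in NEAT1-202 (5 on the other strand) and 0 times in MALAT1-202 on either strand, and 28.1% of those lincRNAs held it. CAGGTAAG, which contains GGTAAG, occurred in neither RNA on either strand, and in 3.60% of those lincRNAs. These matches describe the letters only. Counts were summed per gene, so reads of the short and the long NEAT1 were not separated.

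NEAT1 (ENSG00000245532.8; chromosome 11, 65422774 to 65445540, plus strand, a lincRNA gene) was lower in U1_OE libraries. The WT libraries had 404 and 351 CPM of it, against 160.1 and 159 CPM under U1 overexpression. The U1_OE libraries nearly coincided, and both lay far below the WT libraries. The means were 378 ± 37.2 and 159 ± 1.06 CPM (SD, n = 2), a 2.37-fold lower level with an edgeR log2 fold change of -1.24 ± 0.14 (SE). NEAT1 took 0.0402% and 0.0360% of the counts in WT and 0.0156% and 0.0159% in U1_OE libraries. Among 1537 genes with a mean of at least 100 CPM, 0.455% had a lower log2 fold change, as did 3.87% of all genes tested.

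MALAT1 (ENSG00000251562.8; chromosome 11, 65497688 to 65506516, plus strand), the most abundant member, was also lower but less evenly so. Its levels were 989.9 and 873 CPM in WT and 463 and 708 CPM in U1_OE libraries. The groups did not overlap, yet U1_OE 2 lay nearer to WT 2 than to U1_OE 1. The means were 932 ± 82.3 and 585 ± 173 CPM (SD, n = 2), a 1.59-fold lower level. The log2 fold change was -0.67 ± 0.24 (SE) over all libraries, -0.39 without U1_OE replicate 1 and -1.01 without U1_OE replicate 2.

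TALAM1 (RefSeq span on GRCh38.p14: chromosome 11, 65499312 to 65507432) is transcribed against MALAT1 over most of its length. It had 109 and 75.3 CPM in WT and 43.6 and 46.9 CPM in U1_OE libraries, again with no overlap. The means were 92.3 ± 24.1 and 45.3 ± 2.33 CPM (SD, n = 2), a 2.04-fold lower level, and the log2 fold change was -1.03 ± 0.22 (SE), with -0.71 when WT replicate 1 was left out. The labels state no strand-marking step, so it is not known whether its reads and those of MALAT1 were told apart. TALAM1 counts were 11.1% and 8.62% of those of MALAT1 in WT and 9.42% and 6.63% in U1_OE libraries, ranges that overlap. The ratio of MALAT1 to NEAT1 counts was 2.45 and 2.49 in WT and 2.89 and 4.46 in U1_OE libraries. The ratio was higher in both U1_OE libraries than in either WT library, most of all in U1_OE 2. Together NEAT1, MALAT1 and TALAM1 took 0.150% and 0.133% of the counts in WT and 0.0648% and 0.0914% in U1_OE libraries.

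**Figure D1:**
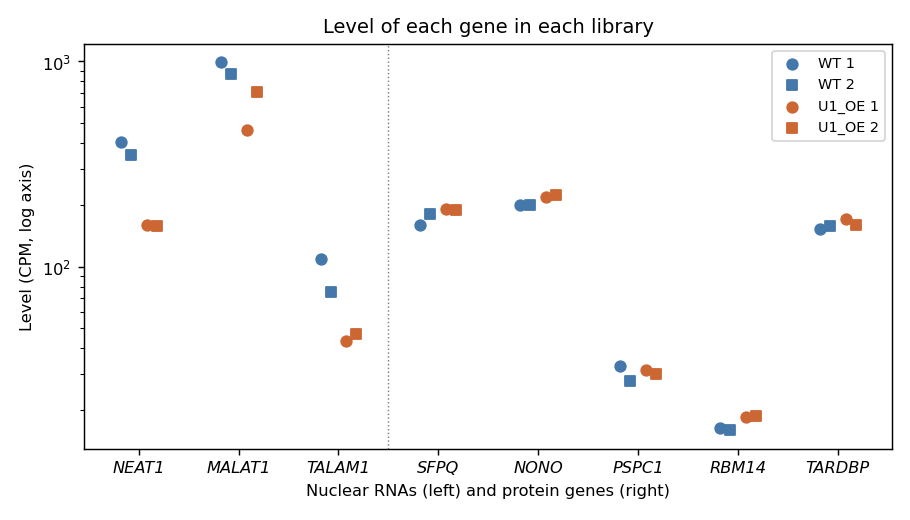
Level of each gene in CPM (log axis) in the 2 WT (blue) and 2 U1_OE (orange) libraries, circles for replicate 1 and squares for replicate 2. NEAT1 lies at 351 or more in WT and at 160.1 or less in U1_OE, while the points of the protein genes on the right lie close together.

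The genes for the proteins that NEAT1 gathers differed by at most 0.21 in log2 fold change. SFPQ (chromosome 1, 35176378 to 35193148, minus strand) had 160.3 and 180.0 CPM in WT and 192 and 188 CPM in U1_OE libraries (log2 fold change 0.16 ± 0.13 (SE)). Its partner NONO (chromosome X, 71283192 to 71301168, plus strand) had 200.3 and 199 CPM in WT and 218 and 222 CPM in U1_OE libraries, with 0.14 ± 0.12. The groups were apart for both genes, by far less than for NEAT1. The ratio of SFPQ to NONO counts was 0.800 and 0.905 in WT and 0.880 and 0.845 in U1_OE libraries, so the U1_OE values lay between the WT values.

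PSPC1 (chromosome 13, 19674752 to 19783019, minus strand), the third member of this family, had 32.7 and 27.6 CPM in WT and 31.3 and 30.0 CPM in U1_OE libraries. Both U1_OE values fell inside the WT range, and the log2 fold change was 0.02 ± 0.15 (SE). Its sign was negative with library size alone (-0.01) and without WT replicate 2 (-0.09).

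RBM14 (chromosome 11, 66616582 to 66627347, plus strand) had 16.4 and 15.9 CPM in WT and 18.5 and 18.8 CPM in U1_OE libraries (log2 fold change 0.21 ± 0.15 (SE)). RBM14-RBM4, a readthrough gene over the same exons, had 11.8 and 18.5 CPM in WT and 30.9 and 5.44 CPM in U1_OE libraries. The sum of RBM14 and the readthrough was 28.2 and 34.4 CPM in WT and 49.4 and 24.2 CPM in U1_OE libraries, which overlap. How reads from shared exons were divided between these genes is not stated, and RBM14 is uncertain for that reason.

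TARDBP (chromosome 1, 11012344 to 11026420, plus strand) encodes TDP-43, which binds NEAT1 and aggregates in motor neuron disease. It had 152 and 158 CPM in WT and 169.9 and 159 CPM in U1_OE libraries (log2 fold change 0.08 ± 0.13 (SE)). U1_OE 2 exceeded WT 2 by less than the WT libraries differed from each other.

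Set against the protein genes, NEAT1 and MALAT1 stood higher in WT than in U1_OE libraries. The mean log2 level of NEAT1 and MALAT1 less the median log2 level of the 5 protein genes was 2.05 and 1.81 in WT and 0.68 and 1.08 in U1_OE libraries. The groups did not overlap, with means of 1.93 ± 0.17 and 0.88 ± 0.28 (SD, n = 2), a difference of -1.05. From the fit across all genes the same contrast was -1.10, and it ran from -1.25 to -0.97 with a library left out. NEAT1 alone, less the protein genes, was at 1.41 and 1.15 in WT and at -0.09 and -0.0011 in U1_OE libraries. Its counts thus exceeded the median protein gene, TARDBP in every library, in WT libraries and were close to it in U1_OE libraries. There NEAT1 still stood above PSPC1 and RBM14 and below SFPQ and NONO. TALAM1, less the same median, was at -0.48 and -1.07 in WT and at -1.96 and -1.76 in U1_OE libraries. It lay below the protein genes' median in all libraries, and further below it in U1_OE libraries. NEAT1 had 2.52 and 1.95 counts for each SFPQ count in WT and 0.835 and 0.845 in U1_OE libraries. For each NONO count it had 2.02 and 1.77 in WT and 0.735 and 0.713 in U1_OE libraries. Since the members were chosen on this contrast, no test was made.

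**Figure D2:**
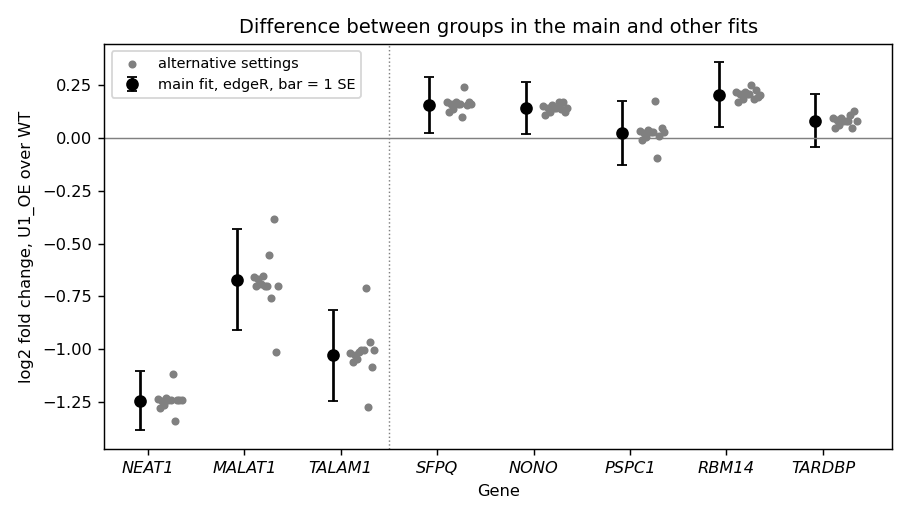
log2 fold change of each gene, U1_OE over WT, in the main edgeR fit (black, bar = 1 SE) and in the alternative fits (grey). Every value of NEAT1, MALAT1 and TALAM1 lies below 0, MALAT1 spreads from -1.01 to -0.39, and the protein genes run from -0.09 to 0.25.

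Of the members, the quasi-likelihood test of edgeR, adjusted over all genes, called 0 of 8, against 0% of the 17317 genes tested. All 3 nuclear RNAs and none of the 5 protein genes had an unadjusted p under 0.05, as did 1572 of the 17317 genes tested. limma-voom called 0 as well. DESeq2 called 2 members lower, NEAT1 and TALAM1, and 0.470% of 17440 genes lower, and it called 0 members higher against 0.614%. Groups did not overlap for 3 members lower and 4 higher, against 22.1% and 19.7% of tested genes. Since the members were chosen on this contrast, nothing is read from their p-values, calls or counts given here. The DESeq2 call of NEAT1 was lost without WT replicate 1 (log2 fold change -1.12) and kept without each other library. That of TALAM1 was kept only without U1_OE replicate 2. MALAT1, not called over all libraries, was called by DESeq2 without U1_OE replicate 2 (log2 fold change -1.01).

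Scaled by exon length, the order of the genes was different from that of their counts. In WT libraries MALAT1 led with 106 CPM per kb, followed by NONO with 37.7, TARDBP with 25.6, SFPQ with 22.9, NEAT1 with 16.6, TALAM1 with 11.4, PSPC1 with 6.25 and RBM14 with 4.11. No neighbours in this order overlapped between WT libraries, and the closest were TARDBP (25.1 and 26.0) and SFPQ (21.6 and 24.2). In U1_OE libraries NEAT1 had 7.001 CPM per kb, near PSPC1 with 6.36 and TALAM1 with 5.57. The value of NEAT1 assumes the whole gene of 22767 bases. If all counts came from the short transcript of 3441 bases, NEAT1 would have 109.7 CPM per kb in WT and 46.3 in U1_OE libraries, which would put it beside MALAT1 in WT libraries.

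Other genes of these pathways came from 7 lists drawn up from general knowledge, with earlier results of these data known. No member of these lists was called by edgeR, DESeq2 or limma-voom. Of 31 tested genes for other paraspeckle proteins, such as EWSR1, TAF15 and HNRNPK, 20 had a positive and 11 a negative log2 fold change. Their median was 0.11, against -0.01 over all genes tested. An unadjusted p under 0.05 was found for 3 of the 31, against 1572 of all 17317 genes tested. The counts of such p given for the lists below stand against that same background, and nothing is read from them. The smallest p were those of FAM98A (88.1 and 80.5 CPM in WT, 106 and 112 CPM in U1_OE) and of the zinc finger gene ZC3H6 (2.42 and 3.28 against 1.37 and 1.11 CPM). FAM98A was thus slightly higher and ZC3H6 lower, each without overlap of the groups. The 21 tested nuclear speckle genes had a median of 0.04, with 1 unadjusted p under 0.05, that of the 3′ splice site factor U2AF2 (100.1 and 96.2 against 129 and 119.6 CPM), and the next was ACIN1 (159 and 164 against 225 and 186 CPM).

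Factors that shape the ends of NEAT1 and MALAT1 were not lower as a group. The list of 18 held CPSF6 and NUDT21, which favour the short NEAT1, HNRNPK, which favours the long form, and the RNase P subunits and ELAC2, which cut at the tRNA-like ends. Of these 8 were positive and 10 negative, with a median of -0.02 and 1 unadjusted p under 0.05. CPSF6 had 34.5 and 32.2 CPM in WT and 39.0 and 42.2 CPM in U1_OE libraries (log2 fold change 0.28 ± 0.13 (SE)). The RNase P subunit genes with the smallest p were RPP40 (9.24 and 11.8 against 18.8 and 15.7 CPM) and POP1 (1.98 and 2.89 against 3.30 and 5.96 CPM).

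Transcription factors that act on the NEAT1 promoter gave a median of 0.09 over 10 genes, with 0 unadjusted p under 0.05. RUNX1 (32.3 and 39.1 against 69.6 and 40.8 CPM) and RELA (68.1 and 65.4 against 78.7 and 72.3 CPM) had the smallest p, both higher. HIF1A and EPAS1, the hypoxia factors, had log2 fold changes of 0.32 ± 0.25 and 0.04 ± 0.13 (SE).

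Other nuclear long noncoding RNAs were not lower together. Of 12 tested, 8 were positive and 4 negative, with a median of 0.27 and 1 unadjusted p under 0.05. MIAT, another nuclear body RNA, had 39.9 and 47.9 CPM in WT and 30.2 and 24.8 CPM in U1_OE libraries, a log2 fold change of -0.68 ± 0.18 (SE). FIRRE had 2.5004 and 1.82 CPM in WT and 3.81 and 4.07 CPM in U1_OE libraries.

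**Figure D3:**
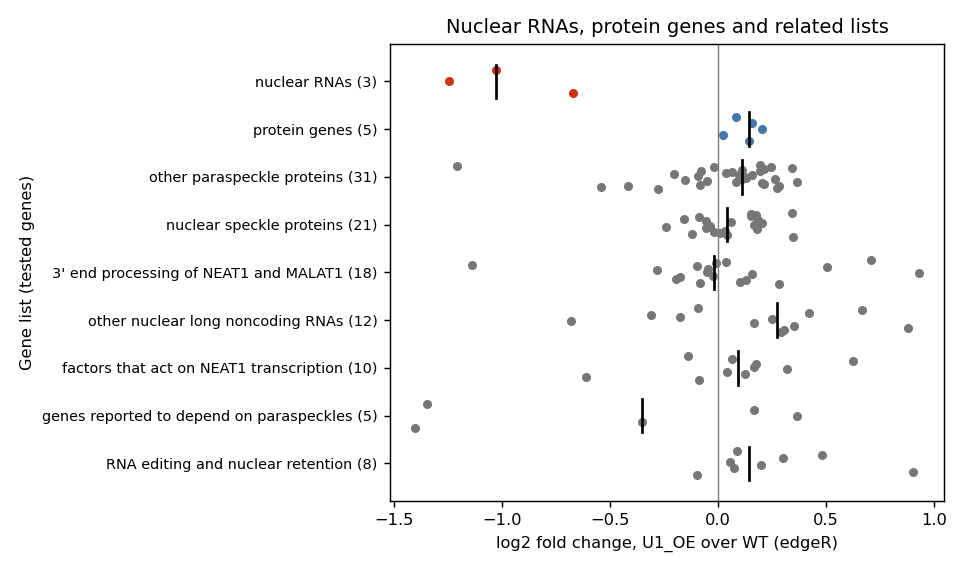
log2 fold change of every tested gene in each list (points) with the list's median (bar). The nuclear RNAs lie at the left between -1.24 and -0.67, while the medians of the other lists run from -0.35 to 0.27.

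Genes that have been tied to paraspeckles as targets were few and low. Of 5 tested, 3 were negative, with a median of -0.35 and 1 unadjusted p under 0.05. SLC7A2, whose nuclear transcript is held in paraspeckles in mouse cells, had 6.68 and 16.96 CPM in WT and 4.56 and 4.79 CPM in U1_OE libraries, so WT 2 stood far above the other libraries. PAICS had 49.8 and 51.2 against 56.5 and 73.4 CPM. Among 8 genes for editing and retention of nuclear RNA, 7 were positive, with a median of 0.14 and 2 unadjusted p under 0.05. These were PRMT1, an arginine methyltransferase (106 and 102 against 147 and 144 CPM; log2 fold change 0.48 ± 0.12, SE), and the editing enzyme gene ADARB1 (4.38 and 3.51 against 7.14 and 7.60 CPM).

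The position of NEAT1 and MALAT1, which the choice of members did not use, allowed a look at their surroundings. Leaving out MALAT1 and TALAM1, 22 further genes of GENCODE v29 were measured within 250 kb of NEAT1, and 19 tested. Of these 13 were positive and 6 negative, against 8542 and 8775 of all genes tested. Their median log2 fold change was 0.15 and their range -0.46 to 0.74, so none was as low as NEAT1 or MALAT1. By edgeR 0 were called, against 0% of all genes tested. DESeq2 called 1 of the 19 higher, against 0.614% of 17440 genes. That gene was FAM89B (chromosome 11, 65572349 to 65574198), at 85.3 and 70.1 CPM in WT and 136 and 124 CPM in U1_OE libraries. FRMD8, the gene before NEAT1, ends 9.2 kb upstream and had 26.8 and 22.5 against 32.7 and 30.6 CPM. LTBP3 differed mainly in U1_OE 1 (76.3 and 99.1 against 182 and 81.6 CPM), and the log2 fold changes of CAPN1, RELA and EHBP1L1 were 0.15, 0.18 and 0.32.

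**Figure D4:**
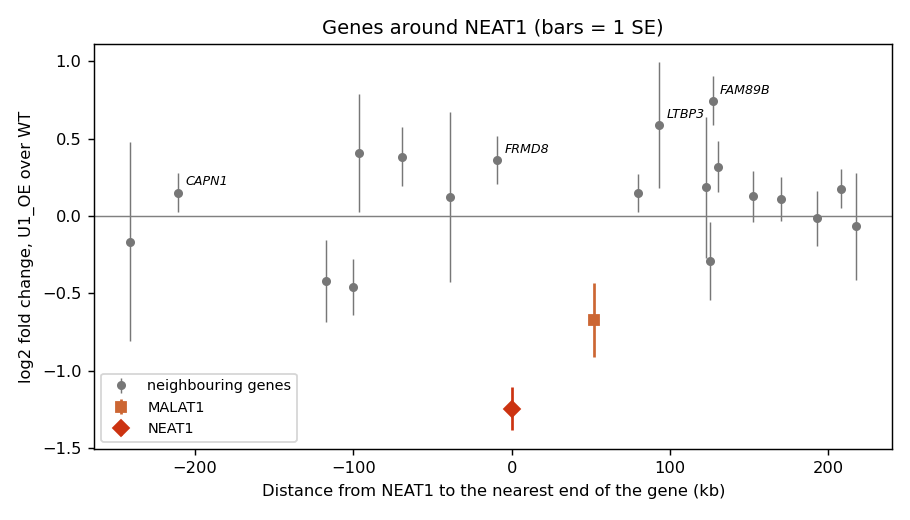
log2 fold change (bar = 1 SE) of tested GENCODE v29 genes within 250 kb of NEAT1, by distance in kb from NEAT1 to the nearest end of each gene. TALAM1, placed by RefSeq, is not drawn. NEAT1 and MALAT1 are the lowest points, and the 19 neighbours lie between -0.46 and 0.74.

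Genes whose profile over the 4 libraries was closest to that of NEAT1, by Euclidean distance of centred log2 CPM among 6077 genes with at least 20 CPM, were FTL, LYPLAL1, ACKR3, HTR2B and SLC43A2. FTL, the ferritin light chain, was the closest (distance 0.138), at 25260 and 19986 CPM in WT and 10347 and 9934 CPM in U1_OE libraries. The others lay at distances of 0.212 to 0.320 and had log2 fold changes of -1.30 to -0.99. TALAM1 ranked 8 at 0.348, and MALAT1 ranked 123 at 0.698. With 4 libraries such a ranking mostly restates the difference between groups and is given as a description.

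**Figure D5:**
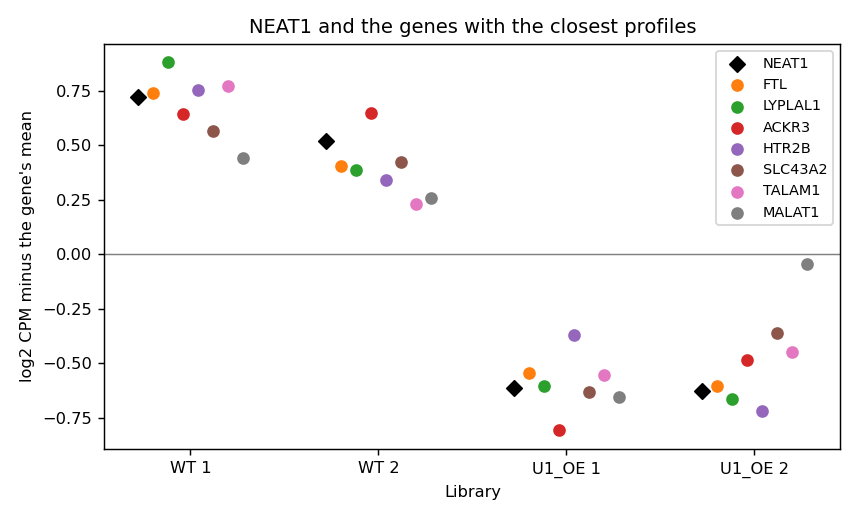
log2 CPM less each gene's mean in the 4 libraries for NEAT1 (black diamonds), the 5 genes closest to it, TALAM1 and MALAT1. All are positive in WT and negative in U1_OE libraries, and MALAT1 departs most in U1_OE 2, where it is at -0.04.

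Some genes that overlap ribosomal RNA, which has no poly(A) tail, were also lower in U1_OE libraries. Of 5 annotated genes over copies of 18S ribosomal RNA on chromosome 21, 3 had the highest CPM of all lincRNA genes. ENSG00000280800 (8210384 to 8211306) had 5456 and 3146 CPM in WT and 1812 and 1546 CPM in U1_OE libraries, a log2 fold change of -1.36 ± 0.29 (SE). ENSG00000280614 had -1.20 ± 0.22 and ENSG00000281181 -0.97 ± 0.19, and DESeq2 called all 3 lower. The other two had few counts and were not called: ENSG00000280441 had 1.52 and 5.69 against 4.23 and 3.02 CPM, which overlap, and ENSG00000278996 had 5.42 and 4.38 against 0 and 2.30 CPM. Their reads can be shared between near-identical copies. The RNAs of replication-dependent histone genes also lack a poly(A) tail. Their summed levels were 1639 and 1716 CPM in WT and 1840.3 and 1781 CPM in U1_OE libraries. Of 41 tested, 29 were positive. DESeq2 called 3 of the 41 higher and 0 lower, against 0.614% and 0.470% of 17440 genes. Whether these levels bear on those of NEAT1 and MALAT1 was not tested.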

How the data were processed

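Expression was measured by RNA-seq in 2 WT and 2 U1_OE libraries. Estimated counts per gene were deposited by the authors, not normalised; per the submitters' processing notes Trim Galore, STAR, featureCounts and DESeq2 were used with hg38, without stated versions or roles, and the origin of the fractional values was not stated. Values were rounded to whole numbers. edgeR 4.0.16 in R 4.3.3 filtered with filterByExpr, scaled with TMM and tested U1_OE against WT with the quasi-likelihood test, Benjamini-Hochberg over all 17317 genes, threshold 0.05. CPM are TMM-scaled, and SEs were worked back from the F statistic. The common dispersion was 0.0869, and totals of 16713505 to 19057423 counts limit precision only for genes of a few CPM. Gene spans come from GENCODE v29 (GRCh38), which matched 82.4% of the genes in the table, and that of TALAM1 from RefSeq. No sequence of proteins was used here.

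Members and lists were chosen with earlier results of these data known. Named were all members, the markers COL1A1, DCX, STMN2 and TUBB3, the 2 genes with the smallest p in each list, the 6 neighbours of highest CPM within 250 kb (1 of them is not reported here), and the 5 genes closest to NEAT1; SYT1, SYP, NEFL, RBFOX3, PAX6, SOX2, CPSF6, HIF1A, EPAS1, FRMD8, RBM14-RBM4 and the genes over ribosomal RNA were added after values were seen, as were the histone genes and the classes of noncoding genes. Alternatives were DESeq2 1.42.0, limma-voom (limma 3.58.1), scaling by RLE or by library size alone, filters of a sum above 0 or of a mean count of 50, a replicate block and each library left out. The procedures were tested on simulated counts.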

Additional observations from a re-analysis of the deposited data

How the results depend on the processing

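edgeR called 0 genes under each of its alternatives, and limma-voom called 0, while DESeq2 called 189. The members of the pathway lists had 0 calls under each alternative they were counted in, which leaves out the DESeq2 fits with a library left out or with the block. The log2 fold changes of NEAT1 ranged from -1.34 to -1.12, with the same sign in every fit, and those of MALAT1 and TALAM1 stayed negative too. PSPC1 had the other sign with library size alone (-0.0101), and with a library left out it ran from -0.0938 (without WT replicate 2) to 0.173; the other 4 protein genes stayed positive in the fits run for them, which leave out the same DESeq2 fits. The contrast of NEAT1 and MALAT1 with the protein genes kept its sign and was -1.25 to -0.97 with a library left out. The median of the neighbouring genes was 0.0803 to 0.194 with a library left out, lowest without U1_OE replicate 1. DESeq2 called 55 genes without WT replicate 1, 63 without WT replicate 2, 145 without U1_OE replicate 1, 322 without U1_OE replicate 2 and 80 with the replicate block, where NEAT1 stayed called and TALAM1 did not. In the titles, same-numbered libraries share only the number. Their deviations from the group means correlated at -0.173 over 12267 genes. With 2 libraries per group, that value cannot decide whether they were paired. edgeR with the replicate block called 0 genes, NEAT1 had -1.24 and the contrast of RNAs with proteins -1.11. The crossed pairing, added after seeing the data, called 0. A library left out leaves its group with 1 library, which is assumed to vary like the other group. The cause of these shifts was not tested. Levels of a few CPM, such as those of ZC3H6 and POP1, are limited by depth.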

Other observations

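NEAT1 and MALAT1 belong to a class of genes that stood lower more often than higher in U1_OE libraries. Of 893 tested lincRNA genes of GENCODE v29, groups did not overlap in 26.65% lower and 12.65% higher, with a median log2 fold change of -0.13. Of 1327 antisense genes the shares were 24.7% lower and 13.2% higher, with a median of -0.12. Among 13207 protein-coding genes they were 21.5% and 21.5%, with a median of 0.01. DESeq2 called 8 lincRNA genes lower and 7 higher, 7 antisense genes lower and 3 higher, and 57 protein-coding genes lower and 87 higher. The lincRNA class includes the genes over ribosomal RNA, and antisense genes can hold reads of their partners, and these shares are descriptions of the 4 libraries without a test.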
